A study of Cyclotella cryptica with 27 samples.

Results

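The transcripts described here encode ribosomal proteins of the bacterial kind that plastids and mitochondria use, in Cyclotella cryptica CCMP332, a centric diatom, moved from seawater to freshwater. They were taken by name alone, as the genes whose deposited protein name held the words ribosomal protein and none of 40S, 60S, acidic, methyltransferase, acetyltransferase or kinase. The excluded words remove the cytosolic ribosome and the enzymes that act on ribosomal proteins. The rule found 34 of 21250 genes, and 5810 of those 21250 carried a protein name. Cultures in exponential growth in artificial seawater of 24 ppt, at 15 °C with 16 h of light and 8 h of dark, were centrifuged and resuspended in freshwater of 0 ppt. Polyadenylated RNA was sequenced from cultures 0, 15 and 30 min and 1, 2, 4, 8 and 10 h into freshwater, and from a control culture in the 24 ppt seawater. All groups were of the same strain. Each of the 9 groups had 3 labelled replicates.

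Plastids and mitochondria descend from bacteria and make some of their own proteins on ribosomes of bacterial type. In photosynthetic cells the plastid ribosome makes core proteins of the photosystems, and the mitochondrial ribosome makes subunits of the respiratory chain. Many of the ribosomal proteins themselves are encoded in the nucleus, translated on cytosolic ribosomes and imported, while others stayed in the organelle genomes. The 34 genes here are described only by the deposited names. UniProt entries deposited beside the names, and the organisms those entries come from, were not used. Roles given below are those of the like-named protein in Escherichia coli unless another source is named.

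The 3 labelled replicates of 8 groups depended on each other, so 16 of 27 columns were used. Most dependent columns were copies with a fixed offset or means of other columns. A seawater column was a scaled near-copy, and a 15 min column was close to an unequal mix of the other 2. These were 1 column each for seawater, 0 min and 1 h, 2 each for 15 min, 30 min, 2 h, 4 h and 8 h, and 3 for 10 h. A group with 1 column has no spread of its own and was assumed to vary like the others, and p-values measure the spread between columns, which may be technical. Gene counts summed to between 2809130 and 6889349 per column, and the members held 0.204% to 0.343% of them. The 2 columns at 30 min, on which much below rests, had totals of 6889349 and 3523804. Reads aligned in more than 1 place were not counted. They were 15.9% to 34.1% of the sum of these reads, ambiguous reads and reads counted in genes. Of 26 genes named fucoxanthin-chlorophyll binding protein, a diatom antenna protein, 20 had at least 10 counts in each of the 16 columns, and silicon transporter or frustulin names numbered 0. No seawater culture of the later times was analysed here, so time in freshwater, the handling and the time of day cannot be told apart.

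By name, 24 of the 34 proteins belonged to the large subunit and 10 to the small subunit. In 29 names the subunit was 50S or 30S, the bacterial sizes, and no compartment was given. In 5 names the word mitochondrial appeared, and CCRYP_003884, 30S S16-2, was named for both chloroplast and mitochondrion. No name gave the plastid alone, so the names do not show which organelle the 29 serve, and they are called bacterial-type here. The names were 29 different ones. Protein S1 was given to 3 genes, with 1 more called S1 homolog, and S15, L17 and L1 were each given to 2 genes. Genes of the same name may share reads, and the sequences that would show it were not used here.

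The transcripts of these proteins were highest at 30 min and 1 h in freshwater and lay near the seawater level again by 8 h. Against seawater, the median log2 fold change of the 34 members was 0.07 after 0 min of freshwater, 0.27 after 15 min, 0.76 after 30 min, 0.67 after 1 h, 0.41 after 2 h, 0.17 after 4 h, 0.12 after 8 h and 0.06 after 10 h. The median of all 12501 genes tested lay between -0.07 and 0.09 at these times. Between columns of 1 group, the median log2 CPM of the members had a pooled SD of 0.188. The group mean was highest at 1 h for 16 members and at 30 min for 13, and lowest in seawater for 12 and at 0 min for 6. Of all genes tested, it was highest at 1 h for 18.4% and at 30 min for 16.5%. It was lowest in seawater for 18.1% of all genes and at 0 min for 10.9%. The 1 h, seawater and 0 min means are 1 column each. Summed over the 34 members, abundance was 2857 and 2806 CPM at 30 min and 2818 CPM at 1 h, against 2332 CPM in seawater. The 30 min and 1 h columns had the 3 highest sums of the 16, and the other 13 columns lay between 1926 and 2735 CPM. These CPM values (TMM-scaled counts set against the library total) are shares of a library, so a change in the rest of the RNA and a change in these transcripts cannot be told apart.

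**Figure D1:**
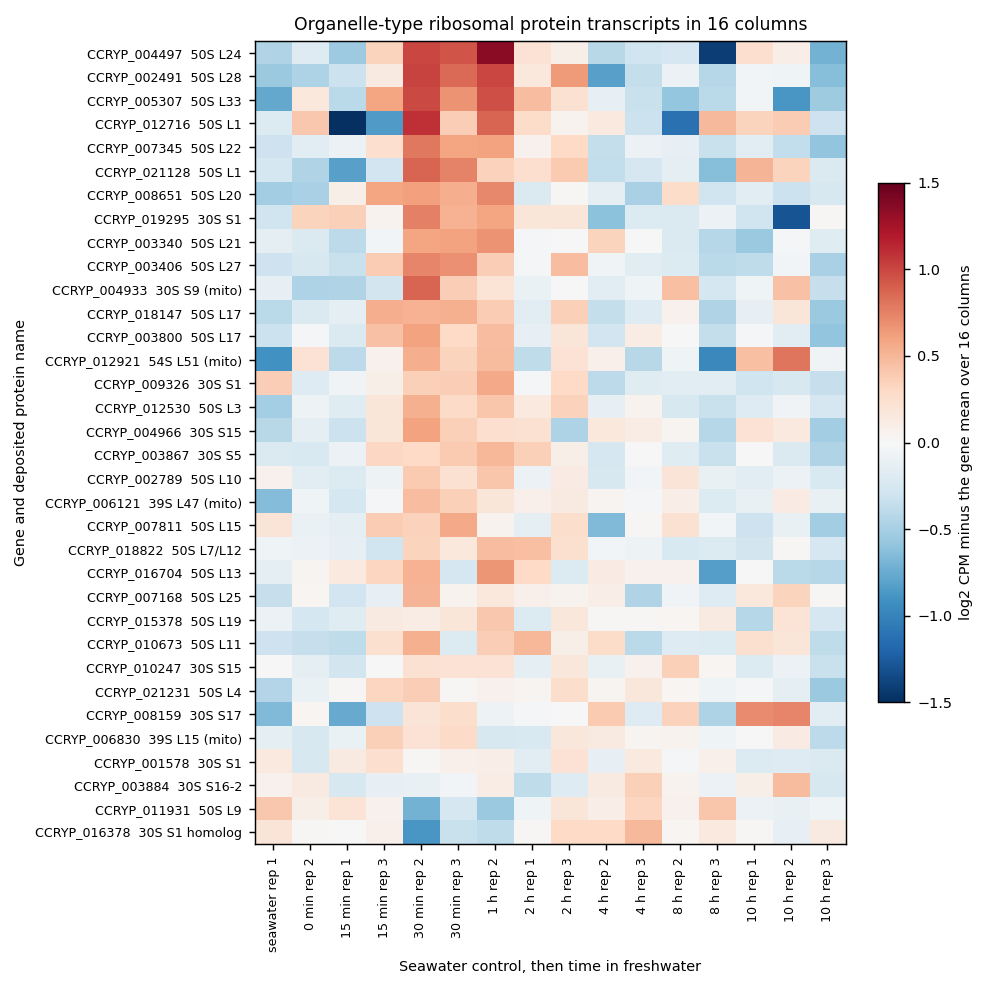
Log2 CPM of each of the 34 transcripts (rows) in the 16 columns (seawater, then time in freshwater), minus the mean of that gene, with red above and blue below. The 30 min and 1 h columns are red for most rows and blue for L9 and the S1 homolog in the bottom rows.

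**Figure D2:**
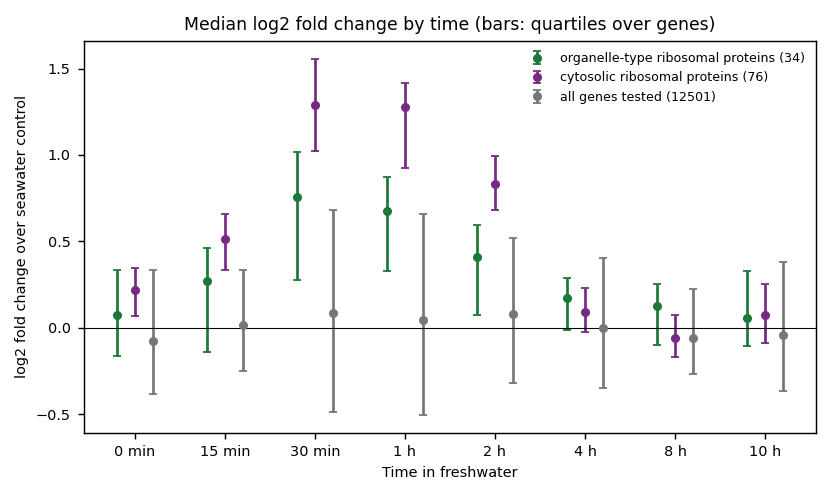
Median log2 fold change over seawater (y axis) at each time in freshwater (x axis) for the 34 organelle-type transcripts (green), 76 cytosolic ribosomal protein transcripts (purple) and all 12501 genes tested (grey), with bars for the quartiles over genes. At 30 min the medians are 0.76, 1.29 and 0.09.

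All 34 members passed the filter on low counts. Over the 9 groups, the edgeR quasi-likelihood test, Benjamini-Hochberg adjusted, called 15 of them at an adjusted p below 0.05, or 44.1%, where 40.9% of all genes tested were called. Without replicate 2 at 30 min 8 were called, where 29.6% of all genes were. At 30 min against seawater, 16 members were called, 14 higher and 2 lower, where 30.7% of all genes were, 14.0% higher and 16.7% lower. At 1 h, 8 were higher and 1 lower, 9 in all, where 18.4% of all genes were, 9.79% higher and 8.61% lower. With each library scaled only by its total, the split at 30 min was 20 members higher and 1 lower, where 20.8% of all genes were higher and 7.09% lower. In that scaling the median of all genes moved up, by 0.12 for the 0 min column, 0.26 for 30 min, 0.13 for 1 h, 0.18 for 8 h, 0.15 for 10 h and 0.25 for 30 min against 15 min. The seawater baseline of these counts was 1 column. Against the 0 min column in its place, 2 members were called at 30 min (L28 and L22), where 6.46% of all genes were, and 1 at 1 h (L28), where 5.48% were. Against the mean of both columns, a comparison added after the data were seen, 16 members were called at 30 min and 9 at 1 h, where 29.7% and 15.2% of all genes were. Of the members called against seawater, 13 of 16 at 30 min and 7 of 9 at 1 h were also called against that mean. With the replicate number as a block in the fit, 9 members were called at 30 min and 1 at 1 h. Of all genes 23.9% and 7.89% were called there. The block kept 8 of the 16 calls at 30 min and 1 of the 9 at 1 h. Without replicate 2 at 30 min, the more deeply sequenced column, 6 members were called there, all higher, where 8.97% of all genes were higher and 4.62% lower.

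Large-subunit proteins made up 13 of the 14 members that rose at 30 min. The transcript of L28 (CCRYP_002491), a protein of bacterial-type ribosomes with no counterpart in the cytosolic ribosome, stood at 46.5 CPM in seawater, then 49.5 CPM after 0 min, 54.4 and 74.8 CPM after 15 min, 137 and 123 CPM after 30 min, 136 CPM after 1 h, 76.4 and 106 CPM after 2 h, 38.9 and 53.2 CPM after 4 h, 64.1 and 50.8 CPM after 8 h and 66.2, 65.3 and 43.8 CPM after 10 h of freshwater. Both 30 min columns and the 1 h column were above every other column, and the 2 h columns lay between them and the rest. L28 rose at 30 min by a log2 fold change of 1.49 ± 0.29 (SE; Benjamini-Hochberg adjusted p = 0.00118) and at 1 h by 1.55 ± 0.32 (SE; Benjamini-Hochberg adjusted p = 0.00302), by the edgeR quasi-likelihood test. It had the lowest p of all members over the 9 groups.

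L24 (CCRYP_004497), which starts large-subunit assembly by binding the ribosomal RNA early, had 8.76 CPM in seawater, then 10.5 CPM after 0 min, 8.16 and 15.0 CPM after 15 min, 23.8 and 23.0 CPM after 30 min, 30.5 CPM after 1 h, 13.9 and 12.6 CPM after 2 h, 8.94 and 9.68 CPM after 4 h, 10.0 and 4.50 CPM after 8 h and 14.2, 12.8 and 7.28 CPM after 10 h of freshwater. Its 30 min and 1 h columns again lay above all others, and a column at 8 h was the lowest. The log2 fold change of L24 was 1.42 ± 0.44 (SE; Benjamini-Hochberg adjusted p = 0.0177) at 30 min and 1.80 ± 0.49 (SE; Benjamini-Hochberg adjusted p = 0.0146) at 1 h by the edgeR quasi-likelihood test. L33 (CCRYP_005307), a small protein close to where tRNA leaves the ribosome, had 6.34 CPM in seawater, then 12.0 CPM after 0 min, 8.16 and 16.2 CPM after 15 min, 21.4 and 17.2 CPM after 30 min, 21.0 CPM after 1 h, 14.9 and 12.6 CPM after 2 h, 9.87 and 8.56 CPM after 4 h, 7.18 and 8.11 CPM after 8 h and 10.5, 5.86 and 7.42 CPM after 10 h of freshwater. The 30 min and 1 h columns were again the highest, followed by a 15 min column, and 1 column at 10 h lay below the seawater column. The seawater values rest on few reads, 29 counts for L24 and 21 for L33. L33 rose by a log2 fold change of 1.62 ± 0.44 (SE; Benjamini-Hochberg adjusted p = 0.00750) at 30 min and 1.72 ± 0.49 (SE; Benjamini-Hochberg adjusted p = 0.0180) at 1 h by the edgeR quasi-likelihood test. Without replicate 2 at 30 min, the 30 min call of L24 was lost (adjusted p = 0.0561).

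**Figure D3:**
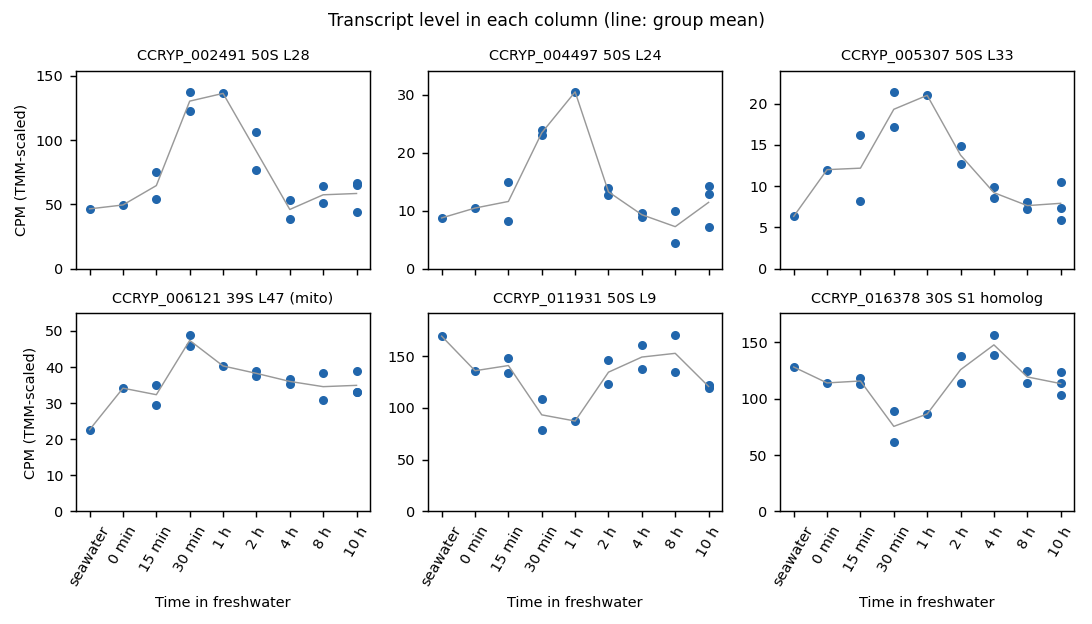
Abundance in CPM (y axis, from 0) of 6 members in each column (points) by group (x axis, seawater then time in freshwater), with a line through the group means. L28, L24, L33 and L47 are highest at 30 min or 1 h, and L9 and the S1 homolog are lowest there.

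L22 (CCRYP_007345), which lines the tunnel through which the new protein leaves, stood at 59.9 and 52.4 CPM at 30 min and 52.9 CPM at 1 h, against 28.1 CPM in seawater and 31.1 CPM at 0 min. The 30 min and 1 h values were above those of all other columns. L22 rose at 30 min by a log2 fold change of 1.00 ± 0.26 (SE; Benjamini-Hochberg adjusted p = 0.00629) and at 1 h by 0.91 ± 0.30 (SE; Benjamini-Hochberg adjusted p = 0.0363) by the edgeR quasi-likelihood test. The other large-subunit members that rose at 30 min are named here after their values were seen. L20 (CCRYP_008651), needed for the first steps of large-subunit assembly, had 19.2 and 18.3 CPM at 30 min and 20.7 CPM at 1 h, against 8.76 CPM in seawater. A 15 min column, at 18.9 CPM, already reached that range, while the other was at 13.3 CPM. L3 (CCRYP_012530), the other protein that starts large-subunit assembly, had 102 and 85.7 CPM at 30 min and 93.8 CPM at 1 h, against 49.5 CPM in seawater. For L3 the seawater column was the lowest of the 16. Both L20 and L3 rose at 30 min, with log2 fold changes of 1.10 ± 0.37 (SE; Benjamini-Hochberg adjusted p = 0.0253) and 0.93 ± 0.23 (SE; Benjamini-Hochberg adjusted p = 0.00419) by the edgeR quasi-likelihood test. At 1 h their log2 fold changes were 1.24 ± 0.42 (SE; Benjamini-Hochberg adjusted p = 0.0412) for L20 and 0.92 ± 0.26 (SE; Benjamini-Hochberg adjusted p = 0.0161) for L3 by the edgeR quasi-likelihood test. Without replicate 2 at 30 min L20 was not called there (adjusted p = 0.0726), and without replicate 1 at 10 h it was not called at 1 h (adjusted p = 0.0512).

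L27 (CCRYP_003406), whose end reaches the site of peptide bond formation, had 39.8 and 38.6 CPM at 30 min, against 19.3 CPM in seawater, and a log2 fold change of 1.02 ± 0.31 (SE; Benjamini-Hochberg adjusted p = 0.0151) by the edgeR quasi-likelihood test. L21 (CCRYP_003340) had 51.5 and 51.6 CPM at 30 min and 31.1 CPM in seawater, a log2 fold change of 0.73 ± 0.26 (SE; Benjamini-Hochberg adjusted p = 0.0365) by the edgeR quasi-likelihood test. Both 30 min columns of L27 and of L21 were above their seawater and 0 min columns, and at 1 h neither was called. L25 (CCRYP_007168), which binds the small 5S ribosomal RNA, and L4 (CCRYP_021231), a tunnel protein like L22, had smaller log2 fold changes of 0.66 ± 0.25 (SE; Benjamini-Hochberg adjusted p = 0.0485) and 0.65 ± 0.24 (SE; Benjamini-Hochberg adjusted p = 0.0427) by the edgeR quasi-likelihood test. For L25 the 30 min columns were 76.0 and 55.5 CPM, against 42.0 CPM in seawater, and 1 of them lay within the range of the later times. The 30 min columns of L4 were 119.8 and 94.0 CPM, against 68.5 CPM in seawater, and overlapped those of 15 min, 2 h and 4 h. The call of L25 was lost in 8 of 13 fits that left out 1 column (adjusted p 0.0513 to 0.234), that of L4 in 3 (0.0501 to 0.163) and that of L21 in 2 (0.0734 to 0.0814), by the edgeR quasi-likelihood test.

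L9 (CCRYP_011931) went the other way. This long protein reaches out from the base of the stalk by the tRNA exit and helps to keep the reading frame. Its level was 169 CPM in seawater, then 136 CPM after 0 min, 148 and 134 CPM after 15 min, 78.5 and 108 CPM after 30 min, 87.4 CPM after 1 h, 123 and 146 CPM after 2 h, 138 and 161 CPM after 4 h, 135 and 171 CPM after 8 h and 121, 119 and 122 CPM after 10 h of freshwater. The 30 min and 1 h columns were the 3 lowest of the 16. L9 fell at 30 min, with a log2 fold change of -0.87 ± 0.22 (SE; Benjamini-Hochberg adjusted p = 0.00446), and at 1 h, with -0.95 ± 0.26 (SE; Benjamini-Hochberg adjusted p = 0.0143), by the edgeR quasi-likelihood test. Without replicate 2 at 30 min, L9 was not called at 30 min (adjusted p = 0.109).

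Of the 5 members with mitochondrial in the name, L51 and L47 were called higher at both 30 min and 1 h. L51 (CCRYP_012921), named 54S after the large subunit of yeast mitochondria, had 8.46 CPM in seawater, then 18.5 CPM after 0 min, 12.1 and 16.6 CPM after 15 min, 23.1 and 20.0 CPM after 30 min, 22.0 CPM after 1 h, 12.2 and 18.4 CPM after 2 h, 16.6 and 11.9 CPM after 4 h, 15.1 and 8.11 CPM after 8 h and 21.6, 27.6 and 15.2 CPM after 10 h of freshwater. The seawater column was near the lowest and a 10 h column was the highest, so the high values of L51 were not limited to 30 min and 1 h. L51 had log2 fold changes over seawater of 1.36 ± 0.42 (SE; Benjamini-Hochberg adjusted p = 0.0186) at 30 min, 1.38 ± 0.49 (SE; Benjamini-Hochberg adjusted p = 0.0492) at 1 h and 1.32 ± 0.41 (SE; Benjamini-Hochberg adjusted p = 0.0472) at 10 h by the edgeR quasi-likelihood test. Against 0 min, at 18.5 CPM, none of these was called (adjusted p = 0.747 at 30 min, 0.802 at 1 h and 0.939 at 10 h). L47 (CCRYP_006121), named 39S after the large subunit of mammalian mitochondria, had 22.6 CPM in seawater, then 34.2 CPM after 0 min, 29.6 and 35.1 CPM after 15 min, 49.0 and 45.8 CPM after 30 min, 40.3 CPM after 1 h, 37.5 and 39.02 CPM after 2 h, 36.7 and 35.4 CPM after 4 h, 38.2 and 30.9 CPM after 8 h and 33.0, 38.8 and 33.0 CPM after 10 h of freshwater. The seawater column of L47 was below the other 15, and both 30 min columns were above all others. L47 rose by a log2 fold change of 1.07 ± 0.25 (SE; Benjamini-Hochberg adjusted p = 0.00354) at 30 min and 0.83 ± 0.29 (SE; Benjamini-Hochberg adjusted p = 0.0491) at 1 h by the edgeR quasi-likelihood test. Against 0 min, L47 was not called at 30 min (adjusted p = 0.230) or 1 h (0.693). Leaving out 1 column ended the 1 h call of L47 in 9 of 13 fits (adjusted p 0.0510 to 0.0624) and that of L51 in 4 (0.0556 to 0.0618). The 10 h call of L51 ended in 5 fits (0.0502 to 0.112), among them those without replicate 1 or 2 at 10 h. Its 30 min call ended without replicate 2 at 30 min (0.0720).

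The other mitochondrial names showed smaller differences. L15 (CCRYP_006830) had 97.9 and 102 CPM at 30 min and 77.0 CPM in seawater, a log2 fold change of 0.38 ± 0.24 (SE; Benjamini-Hochberg adjusted p = 0.233) by the edgeR quasi-likelihood test, and was not called. Its 30 min columns lay within the range of the 15 min columns, 78.6 and 108 CPM. S9 (CCRYP_004933), whose tail reaches the tRNA in the ribosome, had 26.4 and 18.6 CPM at 30 min, against 10.6 and 11.9 CPM at 15 min and 13.3 CPM in seawater. A 30 min column of S9 was the highest of the 16, while the other lay within the range of 8 and 10 h. S9 was higher by a log2 fold change of 1.02 ± 0.30 (SE; Benjamini-Hochberg adjusted p = 0.0155) at 30 min over 15 min, and over seawater its log2 fold change was 0.78 ± 0.37 (SE; Benjamini-Hochberg adjusted p = 0.105) by the edgeR quasi-likelihood test. S16-2 (CCRYP_003884) stayed between 14.2 and 25.7 CPM in all 16 columns and was called in none of the 12 tests, with an unadjusted p of 0.626 over the 9 groups.

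In the small subunit 1 of 10 members rose and 1 fell at 30 min, and 0 were called at 1 h by the edgeR quasi-likelihood test. At 1 h 2 of the 10 had an unadjusted p below 0.05, as did 4177 of all 12501 genes tested. In the large subunit 13 of 24 rose and 1 fell at 30 min. Of all genes tested, 14.0% rose and 16.7% fell at 30 min, and 18.4% were called at 1 h. At 30 min 10% of the small subunit and 54.2% of the large subunit rose. The median log2 fold change at 30 min was 0.39 for the small subunit and 0.86 for the large subunit, and 0.67 for the 6 small-subunit members that were not S1 or its homolog. This split by subunit was made after the values were seen, and the difference between the subunits was not tested. Among cytosolic ribosomal proteins 27 of 29 tested 40S and 44 of 47 tested 60S members rose at 30 min.

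S1, which helps messenger RNA to bind the small subunit, was the name of 3 genes, and their time courses differed. CCRYP_001578 stayed between 362 CPM at 0 min and 512 CPM in a 15 min column, with 433 and 452 CPM at 30 min against 476 CPM in seawater. Its log2 fold change at 30 min was -0.10 ± 0.22 (SE; Benjamini-Hochberg adjusted p = 0.739) by the edgeR quasi-likelihood test, and no comparison called it. CCRYP_009326 had 236 CPM in seawater, then 159 CPM after 0 min, 175 and 194 CPM after 15 min, 234 and 236 CPM after 30 min, 269.7 CPM after 1 h, 179.8 and 224 CPM after 2 h, 139 and 161 CPM after 4 h, 163 and 162 CPM after 8 h and 148, 154 and 143 CPM after 10 h of freshwater. Seawater, 30 min and 1 h were high and the columns from 4 h on were low, without overlap. Its log2 fold change was -0.01 ± 0.20 (SE; Benjamini-Hochberg adjusted p = 0.988) at 30 min and -0.67 ± 0.18 (SE; Benjamini-Hochberg adjusted p = 0.0273) at 10 h by the edgeR quasi-likelihood test. The 10 h call of CCRYP_009326 was lost against 0 min (adjusted p = 0.941), with libraries scaled only by their totals (0.106), and without replicate 1 (0.0816) or replicate 2 (0.0504) at 10 h. CCRYP_019295 had 23.1 and 19.7 CPM at 30 min and 20.7 CPM at 1 h, against 11.2 CPM in seawater and 17.2 CPM at 0 min. It was highest at 30 min and lowest in a 10 h column, at 5.58 CPM, but was not called against seawater, with a log2 fold change of 0.95 ± 0.39 (SE; Benjamini-Hochberg adjusted p = 0.0632) at 30 min by the edgeR quasi-likelihood test.

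The gene named S1 homolog (CCRYP_016378) fell while none of the genes named S1 did so at 30 min. Its level was 128 CPM in seawater, then 114 CPM after 0 min, 113 and 118 CPM after 15 min, 61.5 and 89.3 CPM after 30 min, 86.4 CPM after 1 h, 114 and 138 CPM after 2 h, 138 and 157 CPM after 4 h, 114 and 124 CPM after 8 h and 114, 103 and 123 CPM after 10 h of freshwater. The 30 min and 1 h columns were the 3 lowest, and a 4 h column was the highest. The log2 fold change was -0.78 ± 0.22 (SE; Benjamini-Hochberg adjusted p = 0.00982) at 30 min by the edgeR quasi-likelihood test, and the call was lost without replicate 2 at 30 min (adjusted p = 0.209) and with libraries scaled only by their totals (0.060). Its 1 h difference, a log2 fold change of -0.57 ± 0.26 (SE; Benjamini-Hochberg adjusted p = 0.129) by the edgeR quasi-likelihood test, was not called.

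**Figure D4:**
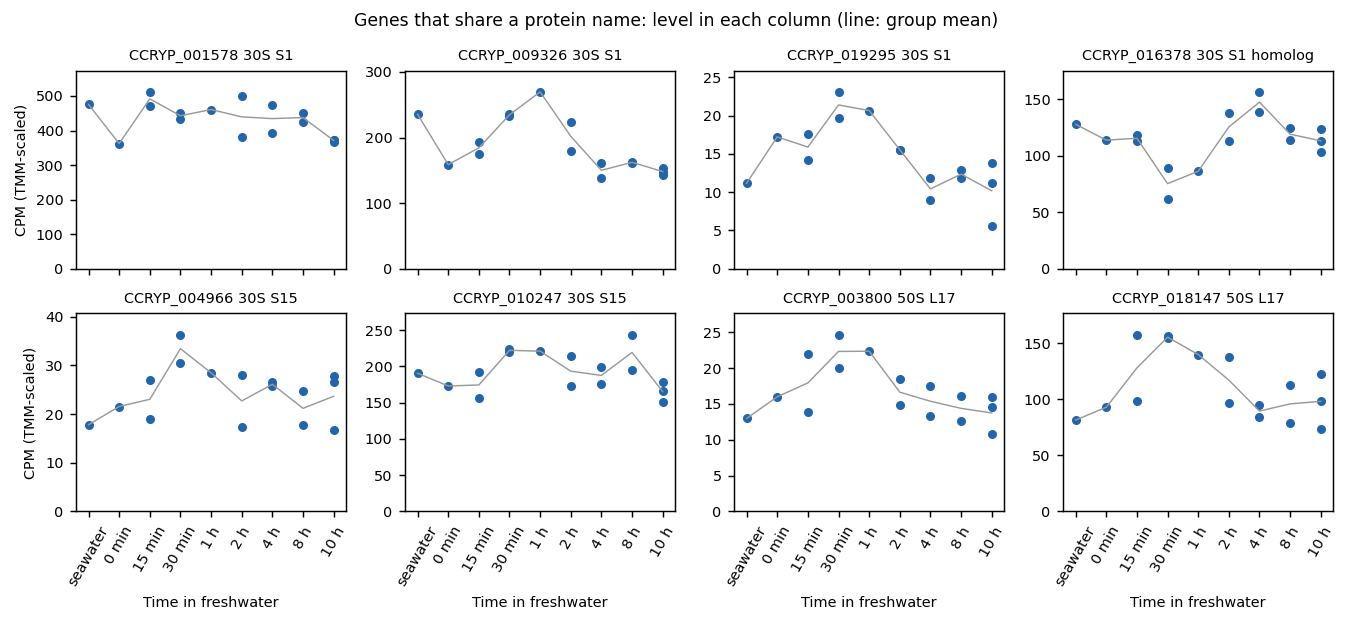
Abundance in CPM (y axis, from 0) of the genes that share the names S1 (with the S1 homolog), S15 and L17 in each column (points) by group (x axis, seawater then time in freshwater), with a line through the group means. At 30 min the S1 homolog is at 61.5 and 89.3 CPM, below its seawater column, while CCRYP_018147 (L17) is at 154 and 156 CPM, above its seawater column.

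S15, which binds the small-subunit RNA early in assembly, was named for CCRYP_004966 and CCRYP_010247. CCRYP_004966 had 36.3 and 30.5 CPM at 30 min and 17.8 CPM in seawater, and rose by a log2 fold change of 0.92 ± 0.35 (SE; Benjamini-Hochberg adjusted p = 0.0456) by the edgeR quasi-likelihood test. Its 30 min columns were the highest 2 of the 16, and the call was lost without replicate 2 (adjusted p = 0.142) or replicate 3 (0.0529) at 30 min. CCRYP_010247 had 224 and 220.3 CPM at 30 min, against 190.5 CPM in seawater, a log2 fold change of 0.22 ± 0.22 (SE; Benjamini-Hochberg adjusted p = 0.454) by the edgeR quasi-likelihood test. Its 30 min columns overlapped those of 8 h, at 244 and 195 CPM, and it was not called.

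L17, at the outer rim of the exit tunnel, was named for CCRYP_018147 and CCRYP_003800, and both had higher values at 30 min than in seawater. CCRYP_018147 had 154 and 156 CPM at 30 min, against 81.5 CPM in seawater, but a 15 min column reached 158 CPM. It rose by a log2 fold change of 0.93 ± 0.31 (SE; Benjamini-Hochberg adjusted p = 0.0302) by the edgeR quasi-likelihood test, a call lost without replicate 2 (adjusted p = 0.0714) or replicate 3 (0.0720) at 30 min. CCRYP_003800 had 24.7 and 20.0 CPM at 30 min, against 13.0 CPM in seawater, a log2 fold change of 0.80 ± 0.35 (SE; Benjamini-Hochberg adjusted p = 0.0860) that was not called by the edgeR quasi-likelihood test. The fold changes of the L17 pair lay within 1 SE of each other.

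L1 forms the movable stalk beside the tRNA exit, and both genes of that name were counted at low depth. CCRYP_021128 had 14.6 and 13.3 CPM at 30 min, from 121 and 48 counts, against 4.54 and 6.55 CPM at 15 min, from 15 and 17 counts, and 6.64 CPM in seawater. CCRYP_012716 had 5.93 and 3.61 CPM at 30 min, from 49 and 13 counts, against 0.907 and 1.54 CPM at 15 min, from 3 and 4 counts, and 2.42 CPM in seawater. In both genes the 30 min columns lay above the 15 min columns without overlap. At 30 min over 15 min CCRYP_021128 rose by a log2 fold change of 1.36 ± 0.35 (SE; Benjamini-Hochberg adjusted p = 0.00776) and CCRYP_012716 by 2.03 ± 0.64 (SE; Benjamini-Hochberg adjusted p = 0.0226), by the edgeR quasi-likelihood test. Over seawater their log2 fold changes at 30 min were 1.08 ± 0.43 (SE; Benjamini-Hochberg adjusted p = 0.0581) and 1.03 ± 0.70 (SE; Benjamini-Hochberg adjusted p = 0.264), and neither was called. Without replicate 1 at 15 min the adjusted p over 15 min was 0.146 for CCRYP_021128 and 0.226 for CCRYP_012716. Without replicate 2 at 30 min these were 0.0539 and 0.206, and without replicate 3 at 15 min CCRYP_012716 had 0.0533.

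The 30 min columns were also set against those of 15 min, so that each side had 2 columns and neither lone baseline column entered. The edgeR quasi-likelihood test, Benjamini-Hochberg adjusted, called 11 of 34 members, 9 higher and 2 lower at 30 min, where 24.2% of all genes were, 10.7% higher and 13.5% lower. The 9 were both L1 genes, L24, S9, L28, L21, L27, L22 and L47, and the 2 were L9 and the S1 homolog. With libraries scaled only by their totals, 20 members were called, all higher, where 20.4% of all genes were higher and 5.0% lower. The fit with a replicate block kept 4 of the 11 calls, where 18.5% of all genes were called. The median log2 fold change of the members was 0.42, and that of all genes was 0.05. L24 had 23.8 and 23.0 CPM at 30 min, against 8.16 and 15.0 CPM at 15 min, a log2 fold change of 1.04 ± 0.34 (SE; Benjamini-Hochberg adjusted p = 0.0264) by the edgeR quasi-likelihood test. L9 had 78.5 and 108 CPM at 30 min and 148 and 134 CPM at 15 min, a fall with a log2 fold change of -0.61 ± 0.18 (SE; Benjamini-Hochberg adjusted p = 0.0178). The S1 homolog had 61.5 and 89.3 CPM at 30 min and 113 and 118 CPM at 15 min, a log2 fold change of -0.63 ± 0.18 (SE; Benjamini-Hochberg adjusted p = 0.0156). In L24, L9 and the S1 homolog the 15 and 30 min columns did not overlap. These transcripts were named for their fold changes between these times, so the gap between columns is no separate support. Replicate 1 at 15 min decided these calls, since 0 members were called without it by the edgeR quasi-likelihood test, where 3.74% of all genes were, and without replicate 2 at 30 min 2 were, where 9.09% of all genes were.

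By 8 h the pattern had turned back. Set against 30 min, with 2 columns on each side, 16 of 34 members were called at 8 h, 14 lower and 2 higher, where 35.6% of all genes were, 19.4% lower and 16.2% higher, by the edgeR quasi-likelihood test, Benjamini-Hochberg adjusted. The median log2 fold change was -0.53 for the members and -0.05 for all genes, and 29 of the 34 members lay below the median of all genes. L24 had 10.0 and 4.50 CPM at 8 h, against 23.8 and 23.0 CPM at 30 min, a log2 fold change of -1.67 ± 0.35 (SE; Benjamini-Hochberg adjusted p = 0.000728) by the edgeR quasi-likelihood test. L33 had 7.18 and 8.11 CPM at 8 h, against 21.4 and 17.2 CPM at 30 min, a log2 fold change of -1.35 ± 0.32 (SE; Benjamini-Hochberg adjusted p = 0.00238). L28 had 64.1 and 50.8 CPM at 8 h, against 137 and 123 CPM at 30 min, a log2 fold change of -1.18 ± 0.22 (SE; Benjamini-Hochberg adjusted p = 0.000274). In these 3 transcripts no 8 h column reached a 30 min column. The L1 gene CCRYP_021128 had 7.18 and 5.11 CPM at 8 h, against 14.6 and 13.3 CPM at 30 min, a log2 fold change of -1.18 ± 0.34 (SE; Benjamini-Hochberg adjusted p = 0.00838) by the edgeR quasi-likelihood test. L9 had 135 and 171 CPM at 8 h, against 78.5 and 108 CPM at 30 min, and rose by a log2 fold change of 0.72 ± 0.18 (SE; Benjamini-Hochberg adjusted p = 0.00350). The S1 homolog had 114 and 124 CPM at 8 h, against 61.5 and 89.3 CPM at 30 min, and rose by 0.68 ± 0.18 (SE; Benjamini-Hochberg adjusted p = 0.00610). L9 overlapped in no column between the times, nor did the S1 homolog. L24, L33, L28, L9 and the S1 homolog were named for their fold changes between these times, so these gaps are no separate support. This comparison and the one of 30 min with seawater share the 30 min columns.

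The other members called lower at 8 h over 30 min, named after their values were seen where not met above, were L27, L22, L21, L51, L3, L17 (CCRYP_018147), L7/L12, S5 and the S1 genes CCRYP_019295 and CCRYP_009326. Their log2 fold changes ran from -1.01 for L27 to -0.47 for L7/L12, the flexible stalk protein that recruits translation factors. S5 (CCRYP_003867), which acts in decoding accuracy, had 75.9 and 68.8 CPM at 8 h, against 107 and 114 CPM at 30 min, a log2 fold change of -0.60 ± 0.19 (SE; Benjamini-Hochberg adjusted p = 0.0139) by the edgeR quasi-likelihood test. CCRYP_009326 had 163 and 162 CPM at 8 h, against 234 and 236 CPM at 30 min, a log2 fold change of -0.53 ± 0.16 (SE; Benjamini-Hochberg adjusted p = 0.0141), although at 30 min it did not differ from seawater beyond its error. Without replicate 3 at 8 h 7 members were called, all lower, where 11.5% of all genes were lower and 8.03% higher. When replicate 2 at 30 min was left out 8 were called, all lower, where 11.4% of all genes were lower and 4.66% higher. In both of these fits the calls of L9 and the S1 homolog were lost (adjusted p 0.0829 and 0.133 for L9, and 0.0580 and 0.213 for the S1 homolog), as were those of CCRYP_021128 (0.104 and 0.0673). The calls of L3, S5, L51, L17, L7/L12 and both S1 genes were each lost in 1 to 4 of the 13 fits that left out 1 column, all of them fits without a 30 min or an 8 h column.

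**Figure D5:**
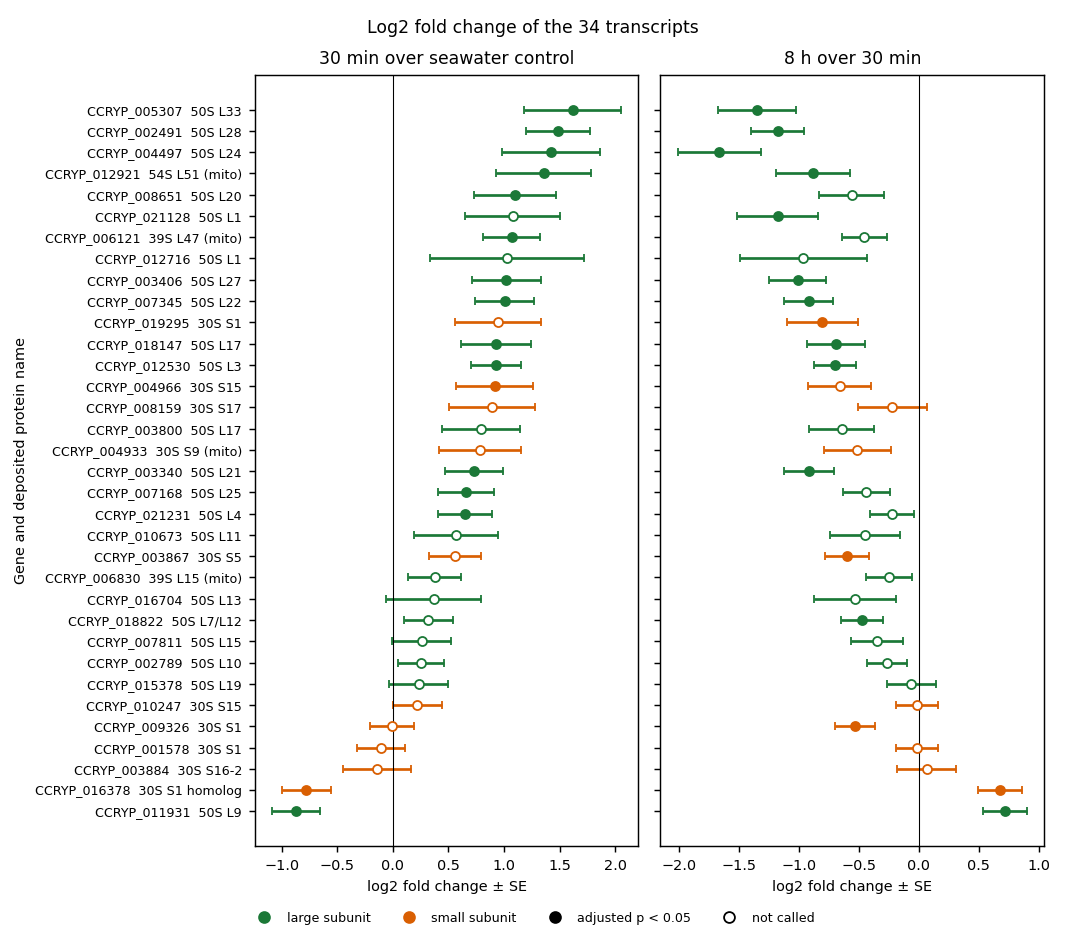
Log2 fold change ± SE (x axis) of each of the 34 transcripts (rows, ordered by the left panel) at 30 min over seawater (left) and at 8 h over 30 min (right), in green for the large and orange for the small subunit, with filled points for an adjusted p below 0.05. The left panel has 14 filled points above 0 and 2 below, and the right panel, which shares the 30 min columns, has 2 above and 14 below.

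Outside 30 min and 1 h few members differed from seawater. At 0 min 0 of 34 were called by the edgeR quasi-likelihood test, where 0.00% of all genes were, and DESeq2 called 0. An unadjusted edgeR p below 0.05 was found for 2 members, and for 1468 of all 12501 genes tested. At 15 min 0 were called, where 0.0880% of all genes were, and DESeq2 called 0. Here 3 members had an unadjusted p below 0.05, as did 1458 of all 12501 genes. At 2 h 0 were called, where 4.89% of all genes were. Here 5 members had an unadjusted p below 0.05, as did 3151 of all 12501 genes. DESeq2 called 1 member at 2 h, L28, where it called 5.86% of all genes. L28 stood at 76.4 and 106 CPM, against 46.5 CPM in seawater, with a log2 fold change in edgeR of 0.97 ± 0.29 (SE; Benjamini-Hochberg adjusted p = 0.0523). At 4 h 0 were called, where 3.77% of all genes were. Here 4 members had an unadjusted p below 0.05, as did 2665 of all 12501 genes. DESeq2 called 1 member at 4 h, the S1 gene CCRYP_009326, where it called 4.07% of all genes. CCRYP_009326 stood at 139 and 161 CPM, against 236 CPM in seawater, with a log2 fold change in edgeR of -0.65 ± 0.20 (SE; Benjamini-Hochberg adjusted p = 0.0621). Without replicate 3 at 10 h, 2 members were called at 2 h, where 6.88% of all genes were. In that fit 1 member was called at 4 h, where 5.34% of all genes were. Some fits without another column also gave calls at 2 h and 4 h. Their ranges are given at the end, with the shares of all genes. At 8 h 0 were called by the edgeR quasi-likelihood test, where 0.0240% of all genes were, and DESeq2 called 0. Here 2 members had an unadjusted p below 0.05, as did 905 of all 12501 genes. The 10 h columns gave 2 calls, L51 higher and CCRYP_009326 lower, where 8.33% of all genes were, 4.69% higher and 3.64% lower, and 0 were called against 0 min or without replicate 1 or replicate 2 at 10 h. With libraries scaled only by their totals 2 members were called at 10 h, both higher, where 5.95% of all genes were higher and 1.16% lower. At 10 h over 8 h 0 were called by the edgeR quasi-likelihood test, where 3.66% of all genes were, and DESeq2 called 0. Here 4 members had an unadjusted p below 0.05, as did 2268 of all 12501 genes. Without replicate 3 at 10 h 1 member was called, where 3.98% of all genes were.

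Members with fewer counts had the higher fold changes at 30 min. Members were ranked by mean CPM, which is not per length and here stands for the depth of counting. Spearman's rho with the log2 fold change across the 34 members was -0.64 at 30 min and -0.63 at 1 h over seawater. For 8 h over 30 min rho was 0.59. This link was not limited to the rise. Over seawater rho was -0.501 for the 0 min column, with 0 members called, and -0.547 for the 10 h columns, with 2 called. Setting 10 h against 8 h gave -0.525, with 0 called, and 30 min against 15 min gave -0.502. Over seawater it was weaker for 2 h (-0.418), 4 h (-0.378), 15 min (-0.220) and 8 h (-0.149). The 34 points share the same columns and are no replicates. The 17 members with the lower mean CPM had a median log2 fold change of 0.95 at 30 min, with 8 higher and 0 lower. The 17 with the higher mean CPM had 0.32, with 6 higher and 2 lower. Of all genes 14.0% were higher and 16.7% lower at 30 min. The highest mean CPM among bacterial-type names was that of the S1 gene CCRYP_001578 and the lowest that of the L1 gene CCRYP_012716. In the lone seawater column L33 had 21 counts, L51 28, and L24 and L20 29 each. Whether depth had a part in the pattern was not tested.

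Among all genes tested, 14.0% were higher and 16.7% lower at 30 min, and 9.79% and 8.61% at 1 h. At 2 h 4.89% were called. At 8 h over 30 min 16.2% were higher and 19.4% lower, and at 10 h over seawater 4.69% and 3.64%. Cytosolic ribosomal proteins, which make the proteins encoded by nuclear genes, rose at 30 min and 1 h. Of 76 tested genes of this list, 71 were higher and 0 lower at 30 min, with a median log2 fold change of 1.29. At 1 h 63 were higher, with a median of 1.27. At 2 h 28 were higher, where 0 of the 34 organelle-type members were called, and from 4 h to 10 h 0 were called by the edgeR quasi-likelihood test. At 8 h over 30 min 74 of 76 were lower, with a median of -1.35. The difference between the cytosolic and organelle-type lists was not tested. The lists that follow were taken by words in the protein name. The words named bacterial-type factors but did not exclude cytosolic genes whose names hold them. Translation factors of bacterial type, such as elongation factors Tu and G, had 8 of 26 tested genes higher and 3 lower at 30 min. They had 9 higher and 0 lower at 1 h, and 2 higher and 15 lower at 8 h over 30 min. The 43 tRNA ligases, which charge tRNA with amino acids, had 16 higher and 14 lower at 30 min, 19 higher and 6 lower at 1 h, and 9 higher and 19 lower at 8 h over 30 min. Of these, the 8 named for an organelle had 3 higher and 5 lower at 30 min, 3 higher and 4 lower at 1 h, and 4 higher and 3 lower at 8 h over 30 min. The 42 genes for ribosome assembly and ribosomal RNA maturation of bacterial type had 5 higher and 1 lower at 30 min and 4 higher and 2 lower at 1 h. They had 1 higher and 4 lower at 10 h, and 0 higher and 6 lower at 8 h over 30 min. In this list 14.3% were called at 30 min, below the 30.7% of all genes. At 8 h over 30 min 14.3% were called, below the 35.6% of all genes. Of the 2 enzymes named for modifying ribosomal proteins, 1 was higher and 0 were lower at 30 min.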

How the data were processed

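Transcript abundance was measured by RNA-seq of polyadenylated RNA, and groups were taken from the sample labels. The authors deposited raw gene counts; the submitters' processing notes name STAR 2.7.3a, HTSeq 0.11.3 and edgeR, and no build or strand setting is named. Genes that overlap, antisense genes and near-identical genes are therefore uncertain. The reference table of 14109 genes uses other IDs (0 matches), so no coordinates, lengths or sequences are given. Columns of values matched to no sample numbered 0.

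Columns were compared within groups over genes with at least 100 counts, which left 16 of 27 as independent. Genes passing filterByExpr (minimum count 10, minimum total 15) numbered 12501. After TMM scaling, edgeR 4.0.16 (in R 4.3.3, with limma 3.58.1) fitted 1 coefficient per group, without a replicate block, and gave robust quasi-likelihood tests. P-values were adjusted by Benjamini-Hochberg over all 12501 genes, and an adjusted p below 0.05 was a call. Standard errors came from the F statistic, with 7 residual degrees of freedom and a common biological coefficient of variation of 14.2%. The method was tested on simulated data. DESeq2 1.42.0, other scalings, no filter, all 27 columns, a replicate block, other baselines and leaving out single columns were alternatives.

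Members, lists, names and tests were chosen with earlier results of these data known. Genes were named in full by a rule: the 4 lowest p over the 9 groups per name class, the 3 highest and 3 lowest called fold changes per comparison, the highest and lowest mean CPM per class, and genes sharing a name. Others are said to be named after their values were seen. Where a gene was picked by its values, columns that lay apart are a description and no separate support.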

Additional observations from a re-analysis of the deposited data

How the results depend on the processing

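Of the 39 called fold changes of members named by the rule, none changed sign under any alternative (0 of 39), while 122 refits lost a call and 657 kept it. The median log2 fold change of the members ranged over all alternatives from 0.49 to 1.02 at 30 min, 0.42 to 0.80 at 1 h and -0.68 to -0.45 at 8 h over 30 min, and at 0, 15 min, 8 h, 10 h and 10 h over 8 h it took both signs. Shares in parentheses are those of all genes tested called in the same fit. Of the 27 columns, 11 depend on others as copies, near-copies, means or mixes. With all 27, members called numbered 33 over the 9 groups (94.2%), 9 after 0 min (43.6%) and 12 after 15 min (33.0%). They numbered 30 after 30 min (71.0%), 27 after 1 h (64.7%), 15 after 2 h (53.1%) and 11 after 4 h (47.6%). After 8 h they were 6 (25.1%) and after 10 h 12 (49.7%). For 30 over 15 min they were 27 (59.8%), for 8 h over 30 min 29 (65.1%) and for 10 h over 8 h 5 (27.9%). With libraries scaled only by their totals 24 were called over the 9 groups (42.9%) and 20 at 30 min over 15 min (25.4%). Against 0 min 2 were called at 30 min (6.46%), 1 at 1 h (5.48%) and 0 at 10 h (0.864%), and against the mean of seawater and 0 min 1 at 2 h (4.54%) and 0 at 10 h (5.79%). Without the low-count filter 2 were called at 2 h (10.2%), 1 at 4 h (9.39%) and 1 at 10 h over 8 h (7.33%). DESeq2 called 5 after 1 h (15.2%), 1 after 2 h (5.86%), 1 after 4 h (4.07%) and 7 at 30 min over 15 min (19.7%). Leaving out single columns gave 8 to 18 over the 9 groups (29.6% to 46.0%), 6 to 19 after 30 min (13.6% to 33.4%), 0 to 2 after 2 h (0.785% to 7.76%), 0 to 2 after 4 h (1.26% to 11.5%), 0 to 3 after 10 h (2.47% to 13.8%), 0 to 13 at 30 min over 15 min (3.74% to 26.9%), 7 to 17 at 8 h over 30 min (16.1% to 37.6%) and 0 to 1 at 10 h over 8 h (0.432% to 5.72%). The causes were not tested, beyond the fewer or more columns in a fit. Same-numbered replicates correlated in their deviations by -0.163 to 0.357 (median 0.055), with 8 of 24 pairs over 0.1, and different-numbered ones by -0.357 to 0.241 (median -0.045), with 5 of 46 over 0.1. In a group of 2 columns the deviations mirror each other, so these pairs do not count separately. The replicate 3 columns of 2, 4, 8 and 10 h correlated with each other by 0.084 to 0.357. Replicate 1 at 15 min correlated best with replicate 3 at 10 h (0.163). Not every pair passed 0.1, so the main fit had no replicate block. This rule cannot exclude that some same-numbered columns deviated together. With a replicate block 9 members were called after 30 min (23.9%), 1 after 1 h (7.89%), 1 after 4 h (5.31%), 4 at 30 min over 15 min (18.5%) and 1 at 10 h over 8 h (5.04%). The block kept 8 of the 16 calls at 30 min, 1 of 9 at 1 h, 4 of 11 at 30 over 15 min and 16 of 16 at 8 h over 30 min. The seawater, 0 min and 1 h columns could not be left out. Members at few counts, such as L1 at 15 min with 3 and 4, carry wide counting error.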
